A study of Mus musculus with 8 samples.

Results

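The data compare the distal ileum of untreated mice that lack the channel CFTR (KO) with that of their wild-type littermates (WT). They are the 6 of the 8 libraries of the series that were labelled with couple 1, 2 or 3, and hold 3 KO and 3 WT mice, 1 library per mouse. KO animals were homozygous for the null allele Cftrtm1Cam and controls carried the genotype Cftr N/N, all congenic on FVB. Couples 1 and 3 were female and couple 2 was male, each a KO mouse with a sex-matched littermate. All mice had been raised on a low-fibre diet with an osmotic laxative, which was withdrawn more than 4 days before tissue was taken, and the tissue of each pair was taken no more than 20 min apart, between 12 and 14 h. The labels give no ages. The RNA came from whole sections of the wall within 6 cm of the ileocecal valve, so epithelium, immune cells, stroma and muscle were measured together. A lower value can mean fewer cells of a type or less RNA per cell, and these cannot be told apart.

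CFTR conducts chloride and bicarbonate across the apical membrane of intestinal epithelial cells, and water follows. Without it, the mucus released by goblet and Paneth cells hydrates and expands poorly, and the small intestine of mice lacking the channel is prone to obstruction, which is why such mice are kept on laxative. The ileal epithelium is renewed from crypt stem cells. Their progeny mature on the villus into absorptive enterocytes with a brush border, or into goblet, Paneth, enteroendocrine and tuft cells, under the guidance of signals from the stroma below.

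Values are the authors' non-integer values, taken as RPKM-like (scaled by library size and gene length), and their read depth is unknown. The libraries of couples 1 and 2 listed 20896 genes above 0 each, and those of couple 3 listed 11912 and 11931. Once sorted, couples 1 and 2 hold the same set of values and couple 3 another. Quantile normalization in separate sets leaves values so. The blocked fit therefore compares levels within couples. Group overlap, ranges of summed markers, mean shares and fits without the block also compare levels across couples and across the separate sets. Of 41128 symbols, 11717 reached a value of 1 in 3 or more of the 6 libraries and were tested with limma, with the couple as a block. A gene under 1 in every library of a group met this limit only through the other group. Its p-value is then not independent of the filter. Changes are differences of log2(value + 1), KO minus WT, which understate the change of low genes. Library values are always given in the order of couples 1, 2 and 3.

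Cftr, on chromosome 6 (18170687 to 18322770, GRCm38.p6), was 12.4, 9.94 and 10.1 in WT against 3.74, 2.65 and 3.17 in KO ileum. Each KO value lay below every WT value (log2 change -1.50, SE 0.08, adjusted p = 0.00489). The values span the whole gene and do not show which part of it the remaining RNA covers. Across the tested genes, 984 (8.4%) were higher and 1161 (9.91%) lower in KO at an adjusted p under 0.05. These 2 percentages are the background against which the counts of each gene list below are to be read. Most of the called differences were small: 1754 of 2145 (81.8%) were under 2-fold, and 205 genes (1.75%) were at least 2-fold higher and 186 (1.59%) at least 2-fold lower.

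The number of calls depended on the block. The block leaves 2 residual degrees of freedom, to which limma adds information from all genes. Without the block 135 genes were higher and 118 lower, all of them among the blocked calls. With 1 couple left out, 256 (without couple 1), 474 (without couple 2) and 579 (without couple 3) genes were called. All 2145 blocked calls moved the same way in each of the 3 couples, as did 60.6% of all tested genes. Their direction therefore could not reverse with 1 couple left out. The KO and WT values did not overlap for 661 of the higher and 800 of the lower genes, against 22.4% of all tested genes. Beside each list with called genes, the count without the block is therefore given as well.

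**Figure D1:**
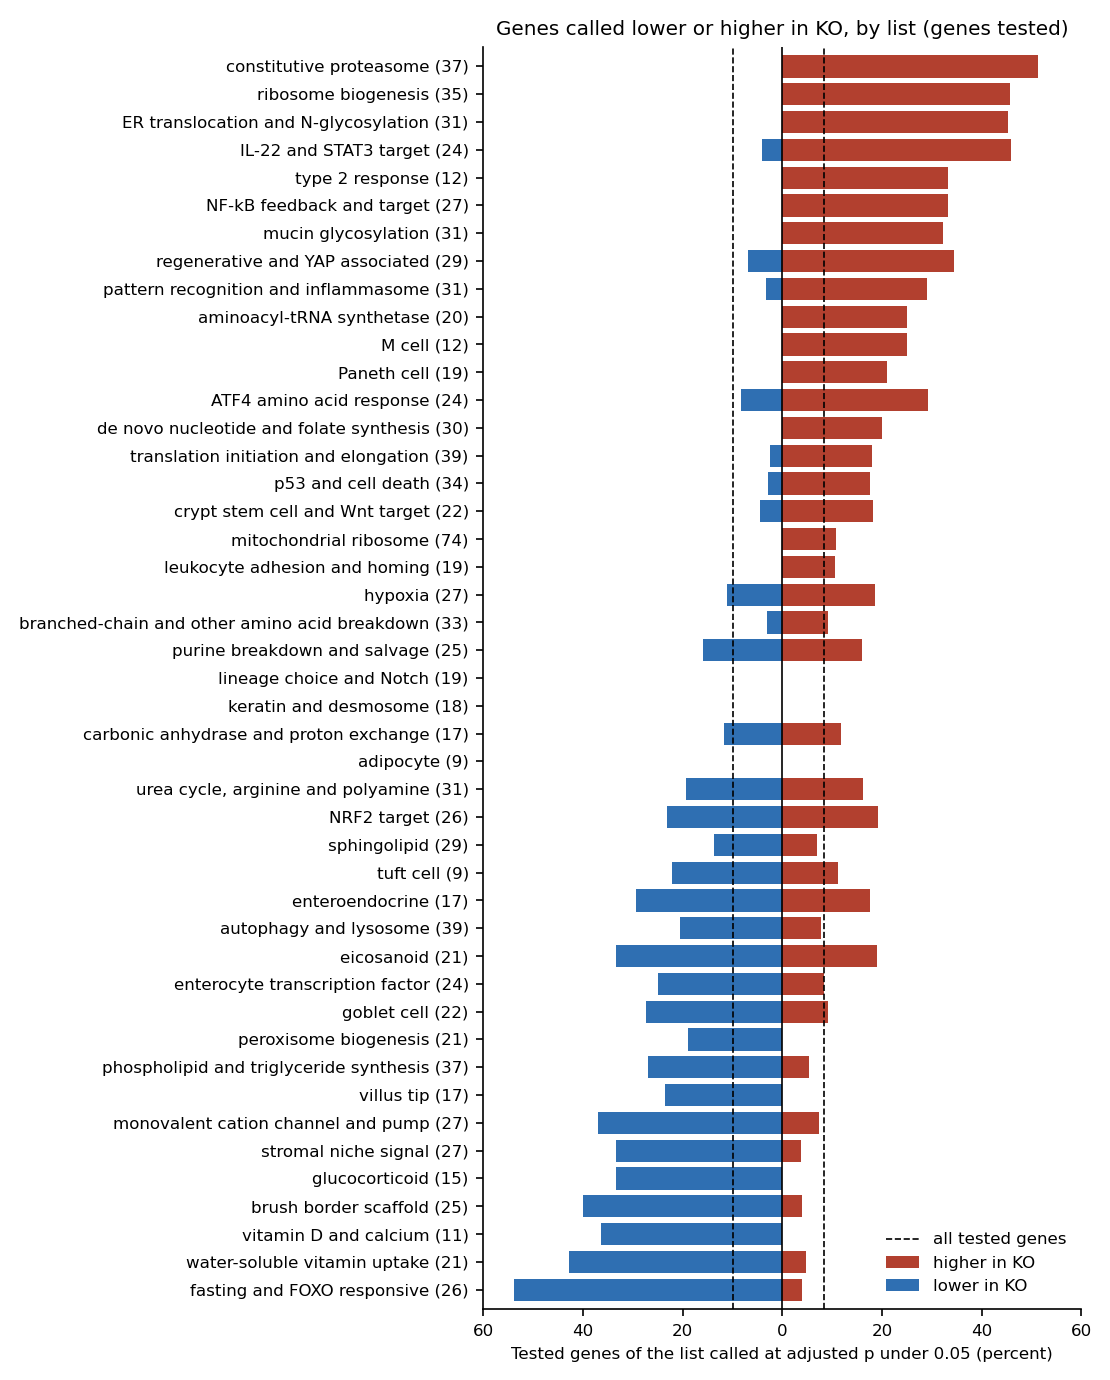
Share of each list's tested genes called higher (red, to the right) or lower (blue, to the left) in KO ileum at a limma adjusted p under 0.05, in percent, for lists with at least 9 tested genes (their number in parentheses). Dashed lines mark all tested genes, 8.4% higher and 9.91% lower; the fasting and FOXO list reaches 53.8% lower and the constitutive proteasome list 51.4% higher.

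Genes that build and support the brush border were more often lower than higher in KO ileum. Of 25 tested genes for its scaffold, 10 fell (40%) and 1 rose, with a median change of -0.27 (0 higher and 1 lower without the block), while the median of all tested genes was -0.01. Pdzk1, the PDZ-domain protein that anchors transporters under the apical membrane, was 119, 102 and 139 in WT against 20.8, 32.4 and 41.5 in KO (log2 change -1.93, SE 0.18, adjusted p = 0.0119). The groups were far apart, and Pdzk1 also passed without the block (adjusted p = 0.0185). Cobl, an actin nucleator of microvilli, was 25.7, 34.8 and 29.6 in WT against 18.4, 19.9 and 17.6 in KO (-0.65, adjusted p = 0.0214), again without overlap. Myo5b, the motor that delivers vesicles to the apical membrane, fell by 0.50, and the PDZ scaffold Slc9a3r1 (NHERF1), which binds CFTR itself, fell by 0.64. The microvillar protocadherins Cdhr2 (-0.78) and Cdhr5 (-0.58), the actin bundler Vil1 (-0.51) and the motors Myo1a (-0.53) and Myo7b (-0.69) fell as well. Baiap2l1, a membrane-bending protein of the same family as Baiap2l2, went the other way (0.43, with overlapping groups), while Baiap2l2 fell by 0.52.

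Among transcription factors of enterocytes, 6 of 24 fell and 2 rose (1 higher and 0 lower without the block), with a median of -0.28. Hnf4g, which with HNF4A drives enterocyte genes, was 121, 67.3 and 127 in WT against 65.4, 40.9 and 67.8 in KO. Each KO value was about as far below its own littermate, although WT of couple 2 lay among the KO values (-0.83, SE 0.08, adjusted p = 0.012, and 0.254 without the block). Hnf4a itself had a change of -0.09 and did not pass. Creb3l3, a membrane-bound factor that governs apolipoprotein genes, fell by 0.68, and Gata5 (-0.46), Klf3 (-0.37) and Isx (-0.67), the repressor of vitamin A conversion, fell as well. Prdm1 (BLIMP1), known both from the immature gut epithelium of the suckling period and from plasma cells, was 2.29, 1.81 and 2.03 in WT against 4.77, 4.3 and 4.97 in KO (0.90, adjusted p = 0.0119, and 0.0254 without the block). Of 17 villus tip genes, 4 fell and 0 rose (0 and 0 without the block), with a median of -0.38. They were the apolipoproteins Apoa4 (-1.17) and Apoc3 (-1.34), the cholesterol transporter Npc1l1 (-0.86) and Creb3l3. None of 18 keratin and desmosome genes was called by limma, 4 had an unadjusted p under 0.05, and their median was 0.00.

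The summed value of 7 enterocyte markers, 1 of which (Vil1) is also a scaffold gene, ranged from 14679 to 19008 in WT and from 6992 to 12247 in KO libraries. Fabp2 and Apoa1 made up most of each sum. Fabp2 was 7892, 3910 and 9830 in WT against 3354, 1737 and 5972 in KO (-1.04, limma adjusted p = 0.0256). Apoa1 was 4661, 9087 and 6656 in WT against 2401, 7135 and 4747 in KO (-0.60), and was not called (limma adjusted p = 0.0785). None of the 7 was at 0 in any group, and the part of the lower sum in the results for absorptive genes was not tested.

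Uptake and activation of water-soluble vitamins was lower in KO ileum in 9 of 21 genes (42.9%) and higher in 1, with a median of -0.34 (0 higher and 1 lower without the block). Vnn1, the pantetheinase that recovers pantothenate from the diet, was 34.8, 36.1 and 73.4 in WT against 6.42, 9.52 and 22.1 in KO (-1.93, SE 0.13, adjusted p = 0.00692). WT of couple 3 stood above the other WT mice, and the KO mouse of that couple above the other KO mice, and the groups did not overlap. Slc5a6, the sodium-driven carrier of biotin and pantothenate, was 21.8, 29.6 and 28.9 in WT against 9.23, 11.9 and 17 in KO (-1.04, adjusted p = 0.0163). Pdxk, which phosphorylates vitamin B6, fell by 0.94. Pank3 (-0.63), the first enzyme of coenzyme A synthesis, the ascorbate carrier Slc23a2 (-0.57), the riboflavin carrier Slc52a3 (-0.65), the nicotinate enzyme Naprt1 (-0.63) and the biotin-recycling Btd (-0.34) also fell. Nampt, which salvages nicotinamide in place of nicotinate, rose from 19.7, 14.4 and 17.8 to 26.1, 20 and 27.5 (0.48, adjusted p = 0.0271), with no overlap. The folate carriers Slc46a1 (-0.27) and Slc19a1 (0.29) and the thiamine carrier Slc19a2 (-0.05) did not pass.

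Of 11 tested vitamin D and calcium genes, 4 fell and 0 rose (0 and 0 without the block): the vitamin D receptor Vdr, its partner Rxra, the calcium-binding S100g and the phosphate carrier Slc34a2. Vdr was 66.3, 96.1 and 88.2 in WT against 48, 59.6 and 49.2 in KO, without overlap (-0.66, adjusted p = 0.0234). The list had 21 members, and the remaining 10 were below the limit on low values. S100g differed more between couples (25.7, 6.66 and 3.03 in WT) than between littermates.

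The list for cation channels, pumps and their regulators had 10 of 27 genes lower and 2 higher, with a median of -0.23 (0 higher and 2 lower without the block). The largest of these falls was that of Trpm6, which carries magnesium rather than a monovalent ion. Trpm6 was 5.88, 6.26 and 4.64 in WT against 0.929, 0.769 and 1.07 in KO (-1.77, SE 0.14, adjusted p = 0.00878), so that every KO value was far below every WT value, and it passed without the block too (0.0047). Ano1, a calcium-activated chloride channel that also marks the pacemaker cells of the gut muscle, was 4.23, 3.84 and 3.98 in WT against 2.2, 1.77 and 1.75 in KO (-0.79, adjusted p = 0.0148, and 0.0397 without the block). Neither Trpm6 nor Ano1, which both passed without the block, is a sodium or potassium channel. Sgk1, the hormone-induced kinase that keeps sodium channels at the membrane, was 56.7, 65.5 and 81.9 in WT against 12.6, 21.5 and 38.3 in KO (-1.57, adjusted p = 0.0178). Its antagonist Nedd4l (-0.50), the kinase Wnk4 (-0.76), the sodium channel subunit Scnn1a (-0.60), the potassium channels Kcnq1 (-0.53) and Kcnk5 (-0.59) and the pump subunit Atp1b1 (-0.39) fell, whereas Kcnk1 (0.39) and the pump modulator Fxyd5 (0.70) rose. Among 17 carbonic anhydrases and acid-base exchangers, 2 rose and 2 fell (0 and 0 without the block), near the background. The membrane-bound carbonic anhydrases Car4 (0.90) and Car9 (0.42) rose, while Car12 (-0.56) and the chloride-bicarbonate exchanger Slc26a3 (-0.58), which normally works beside CFTR, fell.

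The genes known to respond to fasting and FOXO factors held the highest share of falls among lists with at least 9 tested genes: 14 of 26 (53.8%) were lower and 1 higher, with a median of -0.44, and the couple medians were -0.45, -0.64 and -0.44 (0 higher and 3 lower without the block). Klf15, the factor that induces amino acid breakdown and gluconeogenesis in fasting, was 4.97, 3.31 and 5.35 in WT against 0.76, 1.42 and 1.18 in KO (-1.38, SE 0.20, adjusted p = 0.0221). Fbp1, a gluconeogenic phosphatase, was 16.7, 18.7 and 20.5 in WT against 5.45, 6.03 and 4.13 in KO (-1.67, adjusted p = 0.00975). Both were separated between the groups and both passed without the block (0.0207 and 0.00599). Pck1, which supplies gluconeogenesis with phosphoenolpyruvate, was 22.9, 12.5 and 12.1 in WT against 9.85, 3.09 and 5.29 in KO (-1.31, adjusted p = 0.0163). G6pc, the last step of glucose release, was below its littermate in every couple but spread from 5.41 to 25.5 in WT, so the groups overlapped (-1.31). The insulin receptor Insr fell by 0.99, the pyruvate dehydrogenase kinase Pdk2 by 0.74, the mitophagy kinase Pink1 by 0.72, and the factors Foxo3 and Foxo4 by 0.66 and 0.57. Klf10 was the member that rose (0.57). Foxo1 had a change of -0.24 and did not pass. With a value of at least 1 required in all 6 libraries, 11 of 23 fell and 1 rose.

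Steroid-related genes had 5 of 15 lower and 0 higher, with a median of -0.27 (0 higher and 2 lower without the block), but the members that fell were mainly enzymes of the hydroxysteroid dehydrogenase families. Hsd17b4, which in spite of its name is a peroxisomal enzyme of fatty acid oxidation, was 64.9, 67.6 and 88.4 in WT against 21.4, 20.7 and 23.1 in KO (-1.70, SE 0.09, adjusted p = 0.00489). Hsd17b13, a lipid droplet protein, was 13.7, 14.3 and 14.4 in WT against 4.32, 6.09 and 6.11 in KO (-1.23, adjusted p = 0.00953). In both cases all KO values were below all WT values. Hsd11b2, which inactivates glucocorticoid (-0.82), Hsd3b3 (-2.46) and Sgk1 were the others that fell. The glucocorticoid receptor Nr3c1 (-0.31) and its classic targets Tsc22d3 (-0.27), Fkbp5 (-0.14) and Per1 (-0.20) did not pass.

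Genes for membrane and storage lipids included more falls than rises. The list for phospholipid and triglyceride synthesis also held lipases and a lipid droplet coat. Of its 37 tested genes 10 fell and 2 rose, with a median of -0.21 (0 and 0 without the block). Pisd, which makes phosphatidylethanolamine in mitochondria, was 66.3, 50.9 and 70.2 in WT against 27.8, 27.9 and 36 in KO (fell by 1.00, adjusted p = 0.013). The choline kinases Chka (-0.73) and Chkb (-0.56), the choline pathway enzyme Pcyt1a (-0.39), Lpcat3 (-0.52), which remodels phosphatidylcholine, the triglyceride enzyme Dgat1 (-0.46), the lipases Lipe (-0.50) and Mgll (-0.72) and the lipid droplet coat Plin2 (-0.80) fell. Agpat4 (0.67) and Agpat5 (0.43), acyltransferases of phosphatidic acid synthesis, rose. Agpat2 of the same family fell (-0.33, with overlapping groups) and was more abundant, with a WT mean of 140 against 4.46 for Agpat4 and 1.74 for Agpat5. Of 21 peroxisome biogenesis genes 4 fell and 0 rose (0 higher and 1 lower without the block), among them the transporter Abcd3 (-1.30), Pxmp4 (-0.73) and the import factor Pex5 (-0.42), with a list median of -0.13.

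In the sphingolipid list, 4 of 29 genes fell and 2 rose, with a median of -0.12 (1 higher and 0 lower without the block). Enpp7, the brush border enzyme that digests dietary sphingomyelin, was 542, 611 and 825 in WT against 203, 285 and 323 in KO (-1.29, SE 0.10, adjusted p = 0.009), with no overlap. Smpdl3b, a membrane enzyme related to sphingomyelinases that dampens Toll-like receptor signalling, was 11.3, 10.8 and 18.1 in WT against 31.6, 52.4 and 43.9 in KO (1.61, SE 0.20, adjusted p = 0.0175). Sgms2 (-0.59), Cers6 (-0.34) and Sphk2 (-0.36) fell and the ceramidase Acer3 (0.67) rose.

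Genes of eicosanoid metabolism changed in both directions: 7 of 21 fell and 4 rose (1 higher and 0 lower without the block). Pla2g5, a secreted phospholipase that frees arachidonic acid from membranes, was 1.13, 0.607 and 0.892 in WT against 11.7, 10.9 and 9.67 in KO. The lowest KO value was above the highest WT value (2.66, SE 0.11, adjusted p = 0.00489, and 0.00136 without the block). Alox5ap, which hands arachidonic acid to 5-lipoxygenase, rose by 0.75 and the prostaglandin E receptor Ptger4 by 0.46. Among the falls were enzymes that clear such mediators and enzymes that make them. Hpgd, which inactivates prostaglandins, was 163, 111 and 188 in WT against 66.4, 56.7 and 111 in KO (fell by 1.00, adjusted p = 0.0169), and Ephx2, which hydrolyses epoxy fatty acids, was 113, 94.1 and 162 in WT against 37.2, 30.2 and 68 in KO (-1.47, adjusted p = 0.00714). Cyp2j6 (-1.25), Cyp4f14 (-0.57), Cbr1 (-0.90), Ltc4s (-1.17) and the cyclooxygenase Ptgs1 (-0.58) also fell.

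Amino acid and nucleotide genes did not move as a block, and some lists were mixed. In the urea cycle, arginine and polyamine list 5 of 31 rose and 6 fell, with a median of 0.07 (0 and 0 without the block). The falls included mitochondrial enzymes of ornithine metabolism. Oat was 373, 274 and 326 in WT against 194, 131 and 157 in KO (-1.02, SE 0.08, adjusted p = 0.00885), with no overlap, and Arg2 fell by 1.21. The rises included the spermidine and spermine synthases Srm (0.62) and Sms (0.40), and Got1 (0.71) and Aldh4a1 (0.94). Of 30 genes of de novo nucleotide and folate synthesis 6 rose and 0 fell, with a median of 0.23 (0 and 0 without the block). Nme1 (0.73), a nucleoside diphosphate kinase, Rrm2 (0.69), a ribonucleotide reductase subunit, Dut (0.55) and the mitochondrial folate enzyme Shmt2 (0.54) were among them, together with Dctpp1 (0.36) and Adsl (0.32). Purine breakdown and salvage had 4 of 25 higher and 4 lower (0 and 0 without the block). Xdh, which makes uric acid, rose by 0.48, whereas adenosine kinase Adk (-0.50), Entpd5 (-0.52) and the intestinal alkaline phosphatases Alpi (-0.82) and Akp3 (-1.15) fell. Hprt was called (2.23), but its values (219, 27 and 47.1 in WT; 403, 171 and 438 in KO) spread widely within groups and overlapped.

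In the list of branched-chain and other amino acid breakdown, 3 of 33 rose and 1 fell, near the background, with a median of 0.06 (1 higher and 0 lower without the block). Ido1, the interferon-inducible enzyme that degrades tryptophan, was 7.39, 5.28 and 4.83 in WT against 23.1, 30.8 and 16 in KO (1.81, SE 0.19, adjusted p = 0.0137, and 0.0185 without the block). Tat, which degrades tyrosine, was 0.00142 and 0.0755 in the WT libraries of couples 1 and 2, was listed at 0 in that of couple 3, and was 6.51, 1.18 and 4.13 in KO. Tat met the filter on low values only through the KO libraries. Bckdhb rose by 0.43 and Aldh6a1 fell by 0.47.

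Of 24 tested genes of the amino acid response driven by ATF4, 7 rose and 2 fell, with a median of 0.32 (2 higher and 0 lower without the block). Asns, which makes asparagine, was 6.94, 7.07 and 6.2 in WT against 22.8, 23.2 and 14.6 in KO (1.43, SE 0.12, adjusted p = 0.00975), with no overlap. Serine synthesis rose at each of its 3 steps, Phgdh (1.00), Psat1 (0.58) and Psph (0.68). The factor Atf5 rose by 1.37, the translation inhibitor Eif4ebp1 by 0.94 and Ddit4, an inhibitor of the mTOR pathway, by 0.63. Atf4 itself (0.32), Ddit3 (-0.32) and Trib3 (0.28) did not pass, and the amino acid transporter chain Slc3a2 fell by 0.54. The list's median differed between couples, at 0.65 in couple 1, 0.22 in couple 2 and 0.04 in couple 3. Without couple 1 none of its genes was called by limma, and 11 had an unadjusted p under 0.05.

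Genes for making, targeting and turning over proteins were higher by small amounts, and many members shared the direction. All 35 tested ribosome biogenesis genes had a fitted change above 0, with 16 called higher (45.7%), 0 lower and a median of 0.34. All 37 constitutive proteasome and assembly genes were above 0, with 19 higher (51.4%) and a median of 0.35. All 74 genes of the mitochondrial ribosome were above 0 too, but only 8 (10.8%) were called, near the background, with a median of 0.30. Translocation into the endoplasmic reticulum and N-glycosylation had 14 of 31 higher and a median of 0.39, the aminoacyl-tRNA synthetases 5 of 20 and a median of 0.36, and translation factors 7 of 39 higher, 1 lower and a median of 0.17. In the couples 1, 2 and 3 the medians were 0.41, 0.38 and 0.28 for ribosome biogenesis and 0.30, 0.44 and 0.33 for the proteasome. None of the genes in these 6 lists was called by limma without the block, where 10 ribosome biogenesis, 7 proteasome, 12 mitochondrial ribosome, 8 translocation, 7 synthetase and 7 translation genes had an unadjusted p under 0.05. None of the ribosome biogenesis, constitutive proteasome, mitochondrial ribosome or translocation genes was called by limma when couple 1, 2 or 3 was left out, with an unadjusted p under 0.05 for 18 to 22, 21 to 25, 12 to 41 and 16 to 22 of them. The list medians stayed above 0 in each of these fits.

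Npm1 and Psma5 differed between couples about as much as between genotypes. Npm1, the nucleolar chaperone of ribosome assembly, was 77.5, 48 and 68 in WT against 117, 67.7 and 97.9 in KO. Each KO mouse was above its littermate by a similar ratio, while KO of couple 2 was below WT of couples 1 and 3 (0.53, SE 0.07, adjusted p = 0.0202, and 0.404 without the block). Psma5, a subunit of the proteasome core, was 47.4, 22.7 and 43.9 in WT against 63.8, 39 and 74.6 in KO (0.64, SE 0.10, adjusted p = 0.0245), with the same arrangement. Nhp2 (0.61), Gnl3 (0.62) and Wdr43 (0.54) of the nucleolus, Spcs3 (0.55), Rpn1 (0.52) and Ssr3 (0.47) of the translocation machinery, and Kars (0.53), Mars (0.61) and Cars (0.83) of the synthetases rose. Among translation factors Eif1a was 19, 11.4 and 17.2 in WT against 37.2, 24.3 and 32.5 in KO (0.95, adjusted p = 0.00843) and Eif2s2 rose by 0.89, whereas the elongation factor Eef2 fell from 550, 893 and 772 to 448, 514 and 488 (-0.58).

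Exon length moved with the change in all 3 couples. Of 5 classes of equal size by length, the one with the shortest exons (median 1497 bases) had a median change of 0.14 and the one with the longest (9527 bases) of -0.12, and each couple had this slope. With the length trend removed from each library, the medians were 0.33 for ribosome biogenesis, 0.34 for the constitutive proteasome, 0.37 for translocation, 0.27 for the mitochondrial ribosome and 0.40 for the synthetases, with 17, 20, 15, 9 and 8 genes higher and 0 lower. These 5 lists were about as high with the trend removed as with it. The median of the cation channel list moved from -0.23 to -0.12, that of the vitamin D and calcium list from -0.31 to -0.14 and that of the sphingolipid list from -0.12 to -0.07, with 9, 4 and 3 genes lower.

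**Figure D2:**
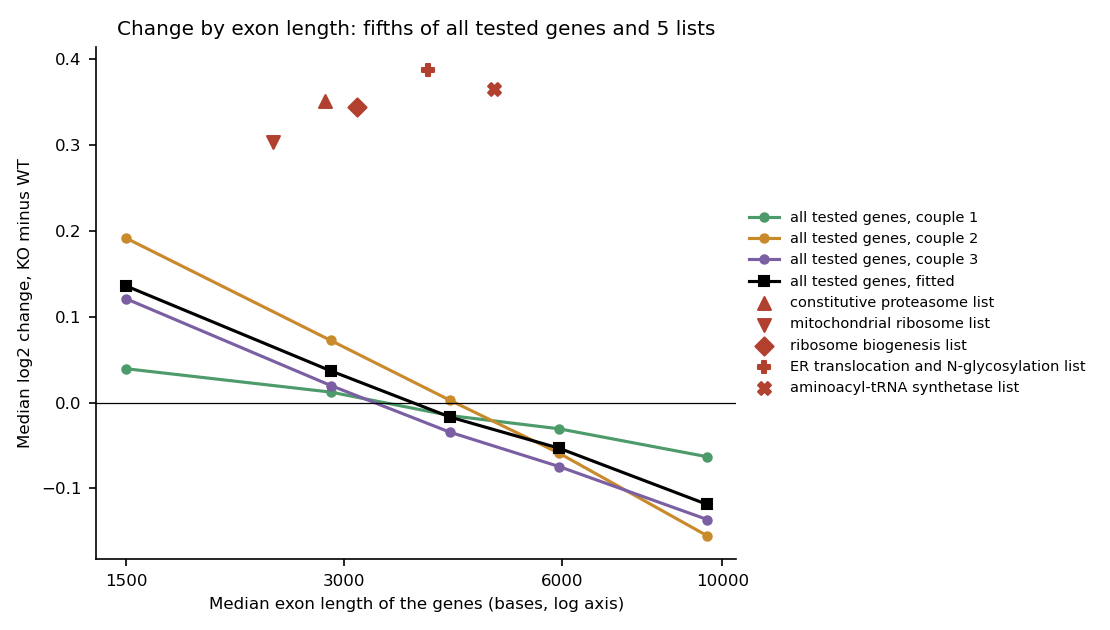
Median log2 change, KO minus WT, against median exon length (bases, log axis) for 5 length classes of all tested genes, in each couple (coloured lines) and fitted over the 3 couples (black), with 5 lists (red symbols). The black line runs from 0.14 to -0.12, and the 5 lists lie at 0.30 to 0.39, above it at their own length.

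The inducible counterpart of the proteasome differed by more. Of 7 immunoproteasome and activator genes 5 rose (2 without the block), with a median of 0.82. Psmb8, a catalytic subunit of the immunoproteasome (chromosome 17, 34198195 to 34201454), was 27.9, 14.6 and 22.7 in WT against 78.8, 74.3 and 78.9 in KO (1.83, SE 0.17, adjusted p = 0.0108). Psmb9 behaved alike (1.69), and Psmb10 (0.84) and the activator subunits Psme1 (0.67) and Psme2 (0.82) rose less. The non-inducible activators Psme3 (0.09) and Psme4 (0.12) did not pass.

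**Figure D3:**
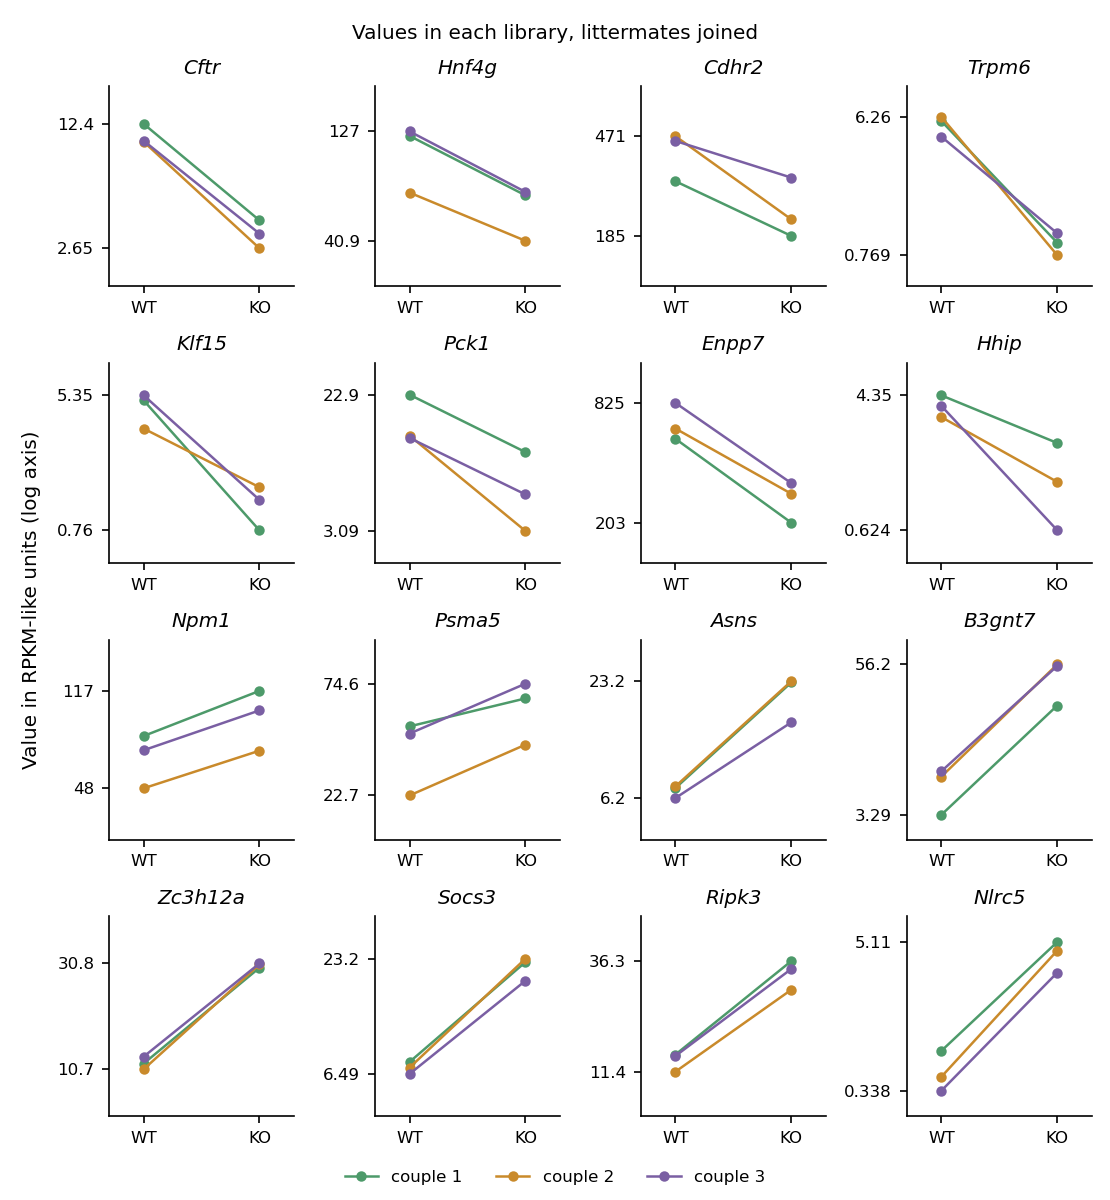
Values of 16 genes in each library (RPKM-like units, log axis with a range of its own for each gene), with the WT and KO littermates of each couple joined by a line. B3gnt7 goes from 3.29 to 25.8 in couple 1 and Trpm6 from 5.88 to 0.929, while Npm1 and Psma5 rise by similar steps from starting levels that differ between couples.

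Some of the enzymes that build the sugar chains of mucins and of the epithelial surface rose. Of 31 tested mucin glycosylation genes (38 listed) 10 were higher (32.3%) and 0 lower (4 higher and 0 lower without the block), with a median of 0.25 that fell to 0.08 over the 26 genes that reached 1 in all 6 libraries, 9 of them higher. B3gnt7, which extends lactosamine chains with N-acetylglucosamine (chromosome 1, 86303221 to 86307305), was 3.29, 6.76 and 7.48 in WT against 25.8, 56.2 and 54.6 in KO (2.75, SE 0.08, adjusted p = 0.00489). The lowest KO value was above 3 times the highest WT value. Fut2, the fucosyltransferase that places the terminal fucose used by gut bacteria, was 0.212, 0.252 and 0.36 in WT against 4.87, 5.29 and 11.9 in KO (2.62, SE 0.22, adjusted p = 0.00954). B3galt5, a galactosyltransferase, was 0.382, 0.43 and 0.468 in WT against 7.93, 7.16 and 28.8 in KO (3.18, SE 0.39, adjusted p = 0.0169), with KO of couple 3 well above the other KO mice. B3gnt7 passed without the block, as did B3gnt3 (1.09). Fut2 and B3galt5 passed too, but both were under 1 in every WT library. They met the filter only through the KO libraries, so their p-values are no independent support. Chst4, a sulfotransferase, stood highest in KO of couple 3 as well (12.9, 21.6 and 48.1, against 5.51, 9.19 and 8.11 in WT; 1.56, adjusted p = 0.034). The starting enzyme Galnt3 (0.36) and the core enzyme C1galt1 (0.39) rose by little, and Gcnt3 (0.36) did not pass.

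Genes that mark the goblet cells themselves were more often lower than higher. Of 22 tested goblet cell genes 6 fell and 2 rose, with a median of -0.17 (0 and 0 without the block). Clca3, a secreted goblet cell protease, was 573, 550 and 639 in WT against 238, 199 and 302 in KO (-1.27, SE 0.11, adjusted p = 0.00975), and Guca2a, which encodes the peptide guanylin that stimulates CFTR-dependent secretion, was 1375, 1643 and 1931 in WT against 620, 768 and 1134 in KO (fell by 1.00, adjusted p = 0.0173). Neither pair of groups overlapped. Retnlb, an antibacterial protein that goblet cells release, went the other way, from 158, 79.4 and 217 to 514, 321 and 772 (1.84, SE 0.10, adjusted p = 0.00489), and Spink4 rose by 0.65. Fcgbp fell by 1.23 and Capn9, Bcas1 and Ern2 by 0.47, 0.40 and 0.39, while the mucin Muc2 (-1.07) and the trefoil peptide Tff3 (-0.46) did not pass. The summed goblet cell markers (23, none at 0) were 7062, 9365 and 9352.5 in WT against 5337, 7123 and 7859 in KO. Each KO sum was below that of its littermate, although the ranges of the groups overlapped.

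Paneth cell genes had 4 of 19 higher and 0 lower, with a median of 0.20 (0 and 0 without the block). Defa5 was 91.2, 143 and 49.3 in WT against 274, 590 and 186 in KO (1.84, SE 0.12, adjusted p = 0.00574), and Mmp7, the protease that activates alpha-defensins, was 99.6, 68.1 and 72.6 in WT against 175, 145 and 200 in KO (1.11, adjusted p = 0.0177). Pla2g2a (0.62) and Defa24 (0.73) rose too, whereas Lyz1 (0.34) and 9 further alpha-defensin genes did not pass. The alpha-defensins are near-identical copies, and how reads were shared among them is not stated in the labels. Paneth cell genes are short, and with the exon-length trend removed the list median was -0.03, with 2 genes higher and 2 lower. The summed Paneth cell markers (21, none at 0) were 16458, 16576 and 11059 in WT against 18078, 17936 and 15826 in KO. Each KO sum was above that of its littermate, although the ranges of the groups overlapped.

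Enteroendocrine genes split, with 3 of 17 higher and 5 lower and a median of -0.32 (1 higher and 0 lower without the block). The peptides that rose were Cck, which signals satiety and gallbladder emptying (5.21, 5.5 and 4.8 in WT; 7.93, 10.5 and 8.04 in KO; 0.66, adjusted p = 0.0205), Ghrl (0.96) and Tac1 (1.14), which enteric neurons express as well. The granule proteins Scg2 (-0.76), Scg3 (-0.46), Pcsk1n (-0.75) and Cpe (-0.46) and somatostatin, Sst (-0.49), fell. Glucagon, Gcg (-0.09), Pyy (-0.15) and neurotensin, Nts (-0.53), did not pass. The summed enteroendocrine markers (26, none at 0) ranged from 277 to 288 in WT and from 198 to 256 in KO. Several granule proteins are also made by neurons, and the summed neuron and glia markers (5, none at 0) ranged from 4.17 to 6.78 in WT and from 2.80 to 3.11 in KO. The part of either cell type in these falls was not tested. In the tuft cell list 1 of 9 tested genes rose (Alox5ap) and 2 fell (Ltc4s and Ptgs1), with 22 listed, and in the M cell list 3 of 12 rose, Ccl9 (0.81), Aif1 (0.44) and Ccl20 (1.14), all 3 of which are also expressed by leukocytes or other epithelial cells; none of these 6 calls held without the block.

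Few crypt and lineage genes passed the test. In the stem cell and Wnt target list 4 of 22 rose and 1 fell, with a median of 0.05 (0 and 0 without the block). Cd44, a Wnt target and adhesion receptor, was 5.87, 4.67 and 3.12 in WT against 10.6, 7.42 and 5.88 in KO (0.69, adjusted p = 0.0165). Prom1 (0.71), Myc (0.53) and Hopx (0.30) rose and the Wnt inhibitor Nkd1 fell (-0.45). The stem cell genes Lgr5 (-0.47), Ascl2 (-0.10), Olfm4 (-0.18) and Smoc2 (0.07) did not pass. None of 19 Notch and lineage choice genes was called by limma and 2 had an unadjusted p under 0.05, with Dll4 (-0.49), Atoh1 (-0.13) and Hes1 (0.03) among them, and this list's median was -0.13.

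Of the signals between stroma and epithelium, 9 of 27 tested genes (41 listed) fell and 1 rose, with a median of -0.41 (0 higher and 1 lower without the block, and 0 and 0 by limma without couple 1, with 14 at an unadjusted p under 0.05). Members of the hedgehog pathway, picked from this list after their values were seen, were among the falls. Ihh, a ligand made by enterocytes, was 22.2, 31.5 and 34.6 in WT against 13.8, 17.5 and 20 in KO (-0.74, SE 0.08, adjusted p = 0.0132). Hhip, a decoy receptor that is itself a hedgehog target of the stroma, was 4.35, 3.18 and 3.73 in WT against 2.19, 1.25 and 0.624 in KO (-1.06, SE 0.18, adjusted p = 0.0287). The receptor Ptch1 fell by 0.65 and the transcription factor Gli1 by 0.61, both below the littermate in every couple and with overlapping groups. Foxf2 (-0.64), a stromal hedgehog target, the ligands Wnt2b (-0.75) and Wnt4 (-0.64), Igf2 (-0.91) and Tgfbi (-0.49) fell as well. Id1, a target of BMP signalling, rose (0.93), and Bmp4 (-0.49), Grem1 (0.18) and Pdgfra (-0.57) did not pass. With a value of at least 1 required in all 6 libraries, 4 of 17 fell and 1 rose. The median was -0.17, -0.29 and -0.64 in couples 1, 2 and 3. Summed fibroblast markers (5, none at 0) ranged from 79.7 to 102.5 in WT and from 52.2 to 117 in KO, and their part in these falls was not tested.

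Interleukin 22 and STAT3 form an axis by which lymphocytes stimulate epithelial defence. The list for this axis holds known target genes together with receptor chains and Stat3 itself. Of 24 tested genes (30 listed) 11 rose (45.8%) and 1 fell, with a median of 0.74 and couple medians of 0.60, 0.84 and 0.76 (5 higher and 0 lower without the block). With a value of at least 1 required in all 6 libraries, 9 of 20 rose and 1 fell. Socs3, the feedback inhibitor that STAT3 induces, was 7.41, 6.96 and 6.49 in WT against 22.4, 23.2 and 18.2 in KO (1.48, SE 0.08, adjusted p = 0.00489). Tifa, an adaptor for bacterial sugar sensing, was 10.3, 7.49 and 11.1 in WT against 44.6, 21 and 38.8 in KO (1.70, adjusted p = 0.009). In both genes the lowest KO value was above the highest WT value. Hif1a rose by 0.90, Lrg1 by 0.93 and Batf3 by 0.57. The receptor chain Il22ra1 was the member that fell (-0.56), and Stat3 itself (0.06), Il10rb (-0.19) and Il6st (-0.08) did not pass.

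NF-kB target genes include the feedback inhibitors of the pathway. Of 27 tested genes (35 listed) 9 were higher (33.3%) and 0 lower, with a median of 0.48 (3 higher and 0 lower without the block), and 7 of 23 rose where a value of at least 1 was required in all 6 libraries. Zc3h12a, the RNase (regnase-1) that degrades inflammatory transcripts, was 11.3, 10.7 and 12.2 in WT against 29.5, 30.4 and 30.8 in KO (1.33, SE 0.07, adjusted p = 0.00489), tight within each group. Irf1 was 28, 25.4 and 31.1 in WT against 58.1, 59.4 and 80.3 in KO (1.19, adjusted p = 0.00835), and Nfkbiz, an inducible nuclear partner of NF-kB, was 7.11, 5.6 and 3.31 in WT against 20.1, 12.5 and 10.4 in KO (1.27, adjusted p = 0.009). The inhibitors Nfkbia (0.68) and Tnfaip3 (0.55), the coregulator Bcl3 (0.92), the cytokine Tnf (0.87) and the chemokine Ccl20 rose. The subunits Nfkb1 (0.01), Rela (0.04), Nfkb2 (0.06) and Relb (-0.35) did not pass.

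Receptors for bacterial products rose in part. In the pattern recognition list 9 of 31 tested genes rose (29%) and 1 fell, with a median of 0.11 (4 higher and 0 lower without the block). The median was -0.02, with 8 of 25 higher and 2 lower, where a value of at least 1 was required in all 6 libraries, and 0.0004 without couple 2. Cd14, the co-receptor for lipopolysaccharide, was 2.38, 2.85 and 2.46 in WT against 7.98, 8.94 and 8.87 in KO (1.43, SE 0.08, adjusted p = 0.00489). Nlrc5, the transactivator of MHC class I genes, was 0.701, 0.436 and 0.338 in WT against 5.11, 4.36 and 2.92 in KO (1.77, adjusted p = 0.00606). Both were separated between the groups and passed without the block, as did Tlr2 (1.00) and Tlr1 (1.02). Nlrc5 was under 1 in every WT library and met the filter only through the KO libraries. The inflammasome genes Pycard (0.56), Aim2 (0.47), Casp1 (0.41) and Casp4 (0.79) and the DNA-sensing adaptor Tmem173 (1.04) rose, while Naip5, a sensor of flagellin, fell from 65, 50.5 and 58.6 to 33.6, 20.8 and 41.1 (-0.89, adjusted p = 0.03). Tlr3 (0.09), Tlr9 (0.11), Nod1 (0.22) and Nlrp6 (-0.04) did not pass.

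Among genes of cell death and p53, 6 of 34 rose and 1 fell, with a median of 0.15 (2 higher and 0 lower without the block). The rises included both core genes of necroptosis, a lytic form of cell death. Ripk3, its kinase, was 13.6, 11.4 and 13.4 in WT against 36.3, 26.9 and 33.4 in KO (1.26, SE 0.08, adjusted p = 0.00526), and Mlkl, which permeabilizes the membrane, was 4.26, 2.61 and 3.14 in WT against 8.5, 9.25 and 7.59 in KO (1.14, adjusted p = 0.018). For both genes, KO and WT values were apart. Bcl2l15, a relative of BCL2, rose by 0.79. The p53 targets Cdkn1a (0.07), Mdm2 (-0.19), Bbc3 (-0.17) and Bax (0.32) did not pass, and Aifm2 fell by 0.41.

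Hypoxia genes had 5 of 27 higher and 3 lower, with a median of 0.17 (1 higher and 0 lower without the block). Hk2, the inducible hexokinase, was 3.05, 4.21 and 2.18 in WT against 21.5, 16.7 and 9 in KO (1.96, SE 0.18, adjusted p = 0.0114), with no overlap. Ero1l (1.01), which forms disulfide bonds in the endoplasmic reticulum, Hif1a, Car9 and Aldoa (0.52) rose, but Vegfa (-0.40), Ndrg1 (-0.76) and Epas1 (-0.61) fell, and Ldha (0.18), Bnip3 (-0.00) and Pgk1 (0.32) did not pass. NRF2 targets were as divided, with 5 of 26 higher and 6 lower and a median of -0.07 (1 higher and 0 lower without the block). Gsr, glutathione reductase, was 64.6, 56 and 70.4 in WT against 130, 137 and 131 in KO (1.05, SE 0.10, adjusted p = 0.012). The NADPH-forming enzymes Pgd (0.54) and G6pdx (0.40), Nqo1 (0.46) and Gclc (0.53) rose, while its partner Gclm (-0.50), Gsta4 (-0.82), Gstm1 (-0.66), the pump Abcc2 (-1.17), Osgin1 (-0.70) and Nfe2l2, the gene of NRF2 (-0.45), fell. In the autophagy and lysosome list 8 of 39 fell and 3 rose, with a median of -0.14 (0 and 0 without the block). Npc1, which exports cholesterol from lysosomes, fell by 0.67, while the lysosomal enzyme Gusb rose by 0.69.

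Type 2 response genes had 4 of 12 tested members higher and 0 lower, with 23 listed and a median of 0.20 (1 higher and 0 lower without the block). Il33, an alarm cytokine of epithelial and stromal nuclei, was 5.23, 2.61 and 2.83 in WT against 19.7, 10.7 and 13.4 in KO (1.78, SE 0.08, adjusted p = 0.00489). The receptor chains Il4ra (0.70) and Il13ra1 (0.65) rose, as did Retnlb. The eosinophil genes Ear1 (-0.91) and Ear2 (-0.97) fell, of 3 tested (0 and 0 without the block), and the summed eosinophil markers (10, none at 0) ranged from 26.1 to 32.7 in WT and from 13.1 to 18.3 in KO. The eosinophil markers Prg2, Epx, Siglecf, Il5ra and Ccr3 were below the limit on low values and were not tested.

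The list of genes linked to regeneration and YAP had 10 of 29 higher and 2 lower, with a median of 0.24 (2 higher and 1 lower without the block). Ly6a (Sca-1), a marker of the repairing epithelium that lymphocytes and endothelium also express, was 10.7, 7.02 and 11 in WT against 30, 17.9 and 25.3 in KO (1.26, SE 0.09, adjusted p = 0.0067). S100a11 (0.88), S100a10 (0.47), S100a6 (0.86) and Anxa3 (0.48) rose. Amotl2, which YAP induces, fell from 3.41, 4.29 and 3.82 to 1.89, 1.4 and 1.12 (-0.98, adjusted p = 0.0234), and the YAP targets Ctgf (0.65) and Cyr61 (0.63) did not pass. Of 19 tested genes for leukocyte homing 2 rose, Selplg (0.72) and Ccl28 (0.92), a chemokine for plasma cells, and 0 fell (0 and 0 without the block). A fitted change above 0 was found for 17, and the median was 0.38. The couple medians were 0.35, -0.19 and 0.94. The list median was -0.05 without couple 3, against 0.39 and 0.75 without couples 1 and 2.

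Marker genes of leukocytes moved with these lists. The summed T cell markers (6, none at 0) ranged from 17.4 to 25.8 in WT and from 50.9 to 75 in KO, the B and plasma cell markers (6, none at 0) from 169 to 283 and from 343 to 679, and the macrophage and dendritic cell markers (5, none at 0) from 70 to 98.3 and from 115 to 210. Neutrophil markers (20, with Mpo at 0 in all 6 libraries) summed to 1.82 to 4.24 in WT and to 3.56 to 33.9 in KO, with the highest sum in KO of couple 1, and 0 of 1 tested was called by limma (1 at an unadjusted p under 0.05). The part of these cells in the changes of NF-kB, interleukin 22, pattern recognition, cell death, type 2 and homing genes was not tested. Mast cell markers (14, none at 0) summed to 4.32 to 8.07 in WT and 5.17 to 7.25 in KO, with 0 of 3 tested called by limma and 2 at an unadjusted p under 0.05. Adipocyte markers (12, none at 0) summed to 124 to 245 in WT and 82.9 to 297 in KO, with 0 of 9 called by limma (1 at an unadjusted p under 0.05), and red blood cell markers (7, none at 0) to 159 to 179 and 115 to 266, with 0 of 4 called by limma (0 at an unadjusted p under 0.05). Pancreatic acinar markers (16, none at 0) summed to 5.31 to 49.4 and 6.43 to 10.4, with 0 of 3 called by limma (1 at an unadjusted p under 0.05), and mesothelial markers (7, none at 0) to 615 to 1063 and 702 to 855, with 0 of 2 called by limma (1 at an unadjusted p under 0.05).

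In the list for interstitial cells of Cajal, Edn3 was higher in KO (0.97, adjusted p = 0.00798) and Ano1 lower, of 4 tested, and both passed without the block. Genes typical of colon and cecum had 3 of 7 higher and 1 lower (0 and 0 without the block). Retnlb, Prdx6 (0.78) and Car4 rose and Slc26a3 fell. The colon and cecum markers (15, none at 0) summed to 733 to 842 in WT and 892 to 1566 in KO. In couples 1 and 2 Retnlb alone rose by more than the whole sum did.

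**Figure D4:**
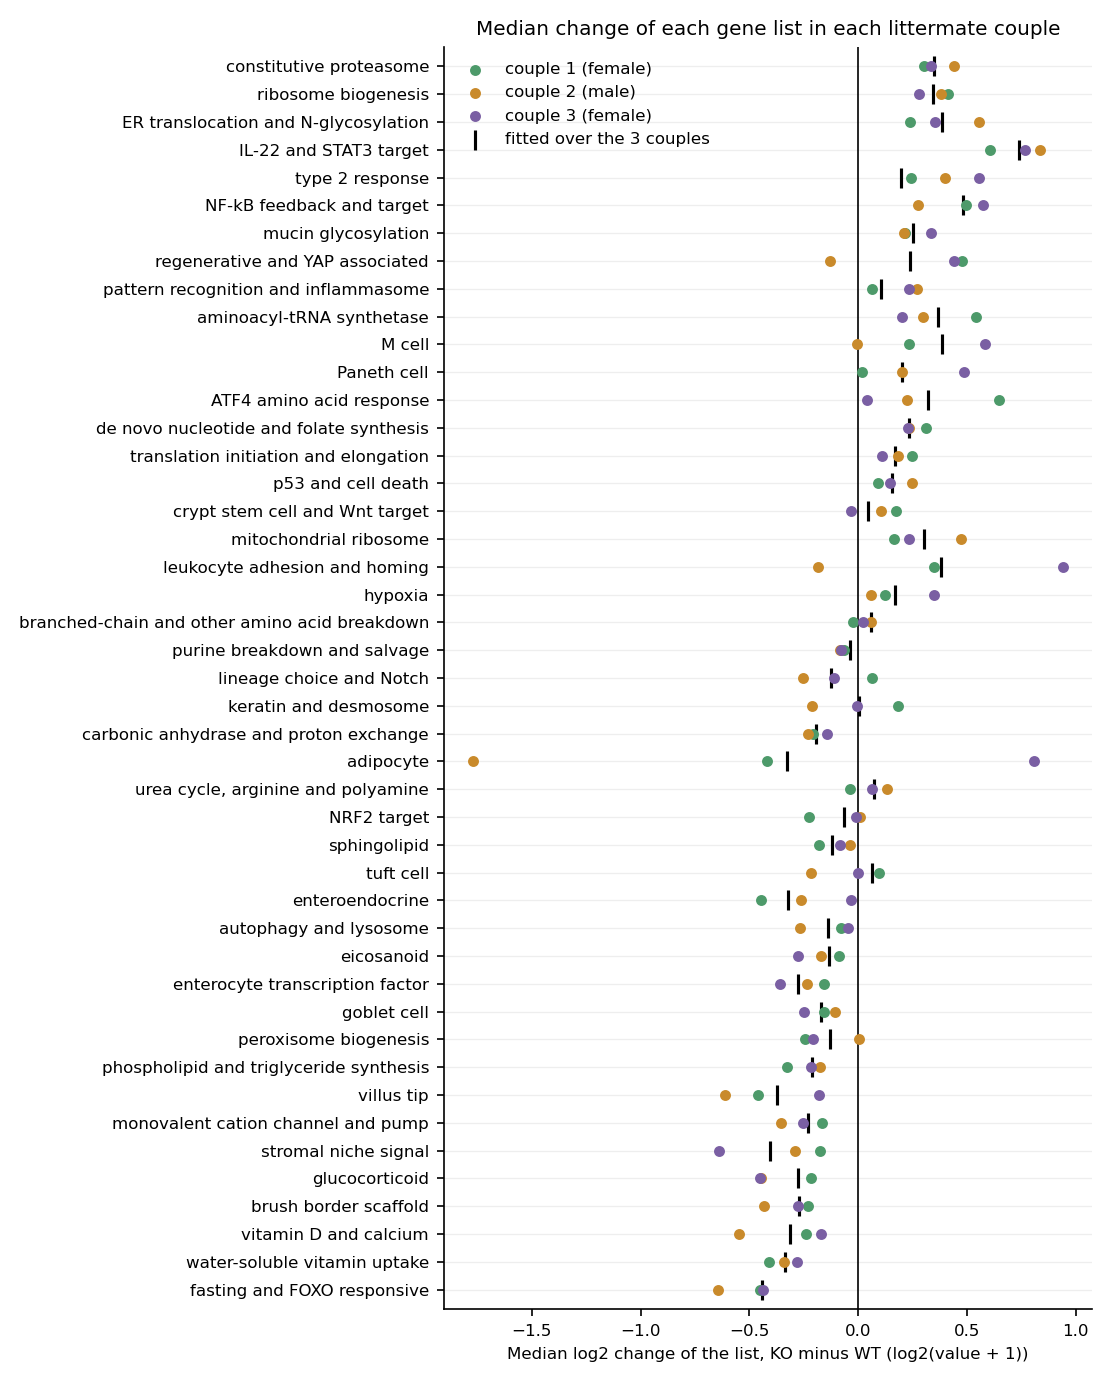
Median log2 change of each list, KO minus WT on the log2(value + 1) scale, in couple 1, couple 2 and couple 3 (coloured points) and fitted over the 3 couples (black bars), for lists with at least 9 tested genes. The interleukin 22 list lies at 0.60 to 0.84 and the fasting list at -0.64 to -0.44, whereas the adipocyte list spreads from -1.77 to 0.81.

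Short stretches of promoter sequence were inspected for 4 motifs, each set against 1 list that holds known targets of the factor that binds it. Promoters were the 250 bases before each transcript start that the RefSeq table gives for a gene (GRCm38.p6), which can lie inside the gene, and a gene counted where any of its starts held the motif. They were available for 8593 of the 11717 tested genes, and both strands were searched. The STAT element TTCNNNGAA, which reads alike on both strands, was present in 7.12% of tested genes and 8.13% of all promoters, and in 3 of 20 genes (15%) of the interleukin 22 list, all 3 of which rose. The amino acid response element TGATGNAA was present in 2.36% of tested genes and 3.91% of all promoters, and in 5 of 20 (25%) of the ATF4 list, among which Asns was the 1 of 6 higher genes that held it. The share of list members that held either of the other motifs was below that of tested genes. The E-box CACGTG bound by MYC was in 10% of tested genes and 6.86% of all promoters, and in 1 of 30 ribosome biogenesis genes (3.33%). The interferon-stimulated response element, searched by its consensus, was in 3.17% of tested genes and 3.46% of all promoters, and in 0 of 7 immunoproteasome genes. A match is a description of the letters and does not show binding, and no match says only that these letters are not in this window. Promoters of Reg3b and Asns are shown as examples. Both genes rose, belong to the interleukin 22 and ATF4 lists and held a match just before the outermost start. Batf3, of the interleukin 22 list, met the same conditions and is not shown. The match of Socs3 was before a start inside the annotated gene, and its sequence is not shown. The sequences shown are written 5′ to 3′ on the strand of the gene, with the motif in capitals. The window of Reg3b is chr6:78370635-78370884 (plus strand) and that of Asns is chr6:7693210-7693459 (minus strand).
Reg3b: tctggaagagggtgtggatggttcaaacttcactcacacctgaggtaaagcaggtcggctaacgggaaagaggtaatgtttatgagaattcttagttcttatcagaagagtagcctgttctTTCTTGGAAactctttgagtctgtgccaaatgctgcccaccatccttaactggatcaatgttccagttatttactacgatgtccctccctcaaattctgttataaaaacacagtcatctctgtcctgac
Asns: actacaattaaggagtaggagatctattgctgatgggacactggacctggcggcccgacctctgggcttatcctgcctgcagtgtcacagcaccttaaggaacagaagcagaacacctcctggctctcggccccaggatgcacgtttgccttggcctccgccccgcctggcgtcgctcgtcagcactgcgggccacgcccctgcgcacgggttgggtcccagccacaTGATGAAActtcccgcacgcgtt
The change of Asns (1.43) is given above. Reg3b, a secreted lectin that kills bacteria, was 1059, 464 and 4148 in WT against 9087, 9087 and 18690 in KO (3.19, SE 0.42, adjusted p = 0.0187, and 0.102 without the block). The identical values of couples 1 and 2 are the same rank in 2 jointly normalized libraries.

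The genotype effect was also compared between the male couple and the 2 female couples. No gene passed the interaction of genotype with sex (limma; smallest adjusted p = 0.145), so 0% of tested genes were called, and 664 had an unadjusted p under 0.05. Couple 2 was the only male couple, so sex and couple cannot be told apart. The 5 genes with the smallest p were the immunoglobulin segments Igkv4-69, Igkv5-43 and Iglv2, the protease inhibitor Serpina1b and the T cell granzyme Gzma. Igkv4-69 was 0.197, 0.344 and 0.386 in WT against 1.68, 167 and 1.45 in KO, so that a single library, KO of the male couple, stood apart from the others.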

How the data were processed

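Total RNA of 6 whole-wall ileum samples was sequenced on a HiSeq 2000 or Ion Proton instrument, and the labels do not tie libraries to instruments. The authors processed reads with CLC Genomics Workbench 7.5 against GRCm38 annotation release 76, per the series' design text. The deposited values are RPKM-like: the authors' table does not name the unit, and it was read from the values, as was quantile normalization in separate sets. Read depth is unknown, so no counting error is given.

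Genes that reached 1 in 3 or more of the 6 libraries (11717) were tested on log2(value + 1) with limma 3.58.1 (R 4.3.3), with the littermate couple as a block, a trend in the prior variance and Benjamini-Hochberg adjustment over all tested genes (threshold 0.05). Pairs are littermates per the labels. Deviations from the group means correlated at 0.62, 0.64 and 0.51 within couples and between -0.51 and -0.06 across them. Deviations from a mean cancel within a group, so positive values within couples bring negative ones across them by arithmetic. Couple 3 also holds another set of values than couples 1 and 2, so these correlations cannot tell littermates from shared processing. The fit was also run on simulated data with changes of at least 2-fold, so that run did not cover smaller changes.

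The 54 gene lists were chosen with earlier results of these data known. Genes were named as the 4 with the smallest p in each list, plus the 15 called with the smallest p in each direction, families, transcript shares, Cftr and 5 interaction genes. Other called or uncalled members named, and the genes plotted by couple, were chosen after their values were seen. P-values of the blocked fit set a change against the spread of the KO minus WT difference between the couples of these mice. That spread is moderated by a prior variance drawn from all tested genes. Only the p-values without the block set a change against the spread between mice of the same genotype. Some genes are not reported here.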

Additional observations from a re-analysis of the deposited data

Results flagged for a closer look

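In 5 lists the median change of the male couple had the opposite sign to that of both female couples. These differences were not tested at the level of the list, and sex cannot be told apart from couple 2. The regenerative and YAP list had a median of -0.13 in couple 2, against 0.477 in couple 1 and 0.441 in couple 3. The leukocyte homing list had a median of -0.186 in couple 2, against 0.349 and 0.939. The other 3 medians of couple 2 were close to 0. The M cell list was at -0.0072 in couple 2 and at 0.233 and 0.582 in couples 1 and 3. The peroxisome biogenesis list was at 0.0013, against -0.244 and -0.209, and the NRF2 list at 0.009, against -0.228 and -0.0107.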

How the results depend on the processing

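With the littermate pairing (the couple block) left out, 135 genes were higher and 118 lower, with 112 and 94 at least 2-fold, and all 253 were among the 2145 blocked calls. With no filter on low values (23285 genes), limma called 0 genes higher and 0 lower, and 0 and 0 at least 2-fold (smallest adjusted p = 0.0852; 4230 genes at an unadjusted p under 0.05). With a pseudocount of 0.1 the number of genes at least 2-fold lower in KO was 296, and a pseudocount of 5 gave 105 at least 2-fold higher and 90 lower, and 1 gene for the interaction with sex. Leaving out each couple in turn gave 130 to 276 genes higher and 126 to 303 lower, and 115 to 201 and 107 to 183 at least 2-fold, the lowest without couple 1. The direction of the 2145 called genes could not reverse without couple 1, 2 or 3, since each moved the same way in every couple. Of 442 named genes, 330 called genes no longer passed without the block, 397 without the filter, and 317, 274 and 258 without couples 1, 2 and 3, and none reversed under any alternative that was run. The other alternatives were median centring, joint quantile normalization, no trend in the prior variance, a value of at least 1 or above 0 in all 6 libraries and, chosen after seeing the data, removal of the exon-length trend. They left the counts in each direction within 1.5 times. The unknown depth limits what can be said of genes near a value of 1.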

Other observations

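Genes were also grouped into families by the letters of their symbols, and no family was called as a whole. The exon-length trend was not removed from the family counts. In the class of tested genes with the shortest exons, 14.9% were called higher and 7.85% lower. In the class with the longest, 2.72% were higher and 12.1% lower. Among families with at least 10 tested genes, those with the largest share of higher genes were Psmb, the beta subunits of the proteasome (7 of 10), Ccl chemokines (6 of 11), Rpl proteins of the large ribosomal subunit (22 of 53, with 1 lower), S100 calcium-binding proteins (5 of 13, with S100g lower), Timm proteins of mitochondrial import (5 of 13) and the stem H, mostly histocompatibility genes (13 of 40, with 3 lower). Ccl8, a monocyte chemokine, was 0.406, 0.679 and 0.35 in WT against 10.5, 9.81 and 6.34 in KO (log2 change 2.72, SE 0.14, limma adjusted p = 0.00489), with no overlap. Ccl8 was under 1 in every WT library and met the filter only through the KO libraries. Ccl22, which attracts T cells, rose by 1.15. Timm23, a channel of the inner mitochondrial membrane, rose by 0.73 and Timm10 by 0.57.

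The families with the largest share of lower genes were the carboxylesterases Ces (8 of 11), Cyp (17 of 32, with 1 higher), Aldh (8 of 16, with 1 higher), semaphorins (6 of 12), Akr (5 of 11, with 1 higher) and Hsd (5 of 12, with 1 higher). The semaphorins, guidance proteins also made by epithelium, were an unlisted family. Sema5a was 9.13, 9.63 and 5.69 in WT against 4.77, 5.19 and 2.9 in KO (-0.79, SE 0.07, limma adjusted p = 0.0114), and Sema4g (-0.56) and Sema6a (-0.67) fell too. The groups did not overlap for any of these 3. Ces2b, a carboxylesterase, was 3.65, 5.03 and 3.1 in WT against 0.354, 0.581 and 0.34 in KO (-1.77, adjusted p = 0.00529). It met the filter only through the WT libraries.

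Among the genes with the smallest p in either direction, several belong to none of the lists. Prss27, a membrane-anchored serine protease, was 1.69, 2.29 and 1.33 in WT against 11.2, 18 and 11.2 in KO (2.37, SE 0.10, limma adjusted p = 0.00489). Il18bp, which neutralizes interleukin 18, was 3, 4.55 and 4.52 in WT against 14, 23 and 18 in KO (1.93, SE 0.09). On the lower side, Tm4sf4, a tetraspan membrane protein, was 133, 163 and 222 in WT against 22.2, 20.5 and 34.1 in KO (-2.71, SE 0.10). Tymp, which degrades thymidine, was 30.8, 39.3 and 49.1 in WT against 4.61, 7.36 and 5.97 in KO (-2.54, SE 0.13). In these 4 genes no KO value lay within the WT range, and all 4 passed without the block.

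As a share of each library's summed value, Reg3b took 0.493% ± 0.486 (SD, n = 3) in WT and 3.29% ± 1.23 in KO, and Reg3g 0.112% ± 0.0909 and 0.839% ± 0.414. Fabp6, the ileal bile acid binding protein, went from 1.65% ± 0.163 to 0.365% ± 0.184, and Fabp2, the intestinal fatty acid binding protein, from 1.94% ± 0.730 to 0.984% ± 0.506. Cd74, the invariant chain of MHC class II, went from 0.101% ± 0.0305 to 0.41% ± 0.0659. Of the 10 genes with the largest gain in share, Igha, mt-Co3, Gm10104 and B2m were not called by limma, and of the 10 with the largest loss, mt-Co1, Apoa1, Gm15284, Gm14851 and Zg16 were not.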
